A study of Mus musculus with 2 samples.

Results

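The subject is a group of 6 genes, Smarcd3, Scin, Abi3bp, Npff, Sprr2b and Tmsb10, out of 16390 named genes with a probe on the array. They were chosen by their measured log2 ratio, high in intestinal cells that carry tdTomato but no EGFP, and each has 1 probe, found by its symbol in the platform's annotation. The study sorted mouse small intestinal epithelium by 2 fluorescent proteins and compared the fractions on 2 two-colour arrays. All mice carried 3 alleles, namely Atoh1-crePGR, Lgr5-EGFP-IRES-creERT2 and the reporter Rosa26-tdTomato. The progesterone-receptor Cre, expressed from Atoh1, was switched on by RU486 given for 5 days, and cells were sorted 20 days after recombination. The labels list no tamoxifen, the drug that activates creERT2. Cells with EGFP but no tdTomato (EGFP only) are Lgr5 cells with no recorded Atoh1 history, and absence of tdTomato does not prove another origin. The double-positive cells, which show both colours, are by design Lgr5 cells that descend from Atoh1-expressing cells. Cells with tdTomato but no EGFP (tdTomato only) are by design the remaining labelled descendants of Atoh1-expressing cells. These descriptions follow the sorting colours, and the purity of the fractions was not tested. All 9 measured lymphocyte markers read higher in both tdTomato fractions than in EGFP-only cells. The labels give no age and no untreated mice, and every fraction was 1 sample sorted from the pooled cells of 4 mice. The Lgr5-EGFP allele is known to be silent in some crypts, so absence of EGFP does not prove absence of Lgr5.

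Atoh1 is the transcription factor that commits intestinal progenitors to the secretory lineage of goblet, Paneth and enteroendocrine cells. Lgr5 marks stem cells at the base of the crypt, and secretory progenitors are known to be able to return to that state. The genes described here come from separate pathways. Smarcd3 encodes BAF60C, a subunit of the SWI/SNF chromatin remodelling complex best known from heart and muscle development. Scin encodes scinderin (adseverin), a calcium-dependent protein that severs and caps actin filaments, and Tmsb10 encodes thymosin beta 10, which binds actin monomers. Sprr2b encodes a small proline-rich protein of the kind cross-linked into the cornified envelope of skin, and Abi3bp a secreted protein of the extracellular matrix. Npff encodes the precursor of neuropeptide FF, an RF-amide peptide known for modulating pain and opioid action.

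Each of the 6 was at least 2-fold higher in tdTomato-only than in EGFP-only cells, as were 6.15% of the 11381 genes above background there. That count follows from the way the genes were picked and is given as a description. In 5 of the 6 the tdTomato-only level was also at least 2-fold above the double-positive level, which held for 0.813% of 11311. These were Smarcd3, Scin, Abi3bp, Sprr2b and Tmsb10. The difference contains the tdTomato-only ratio by which the genes were picked, so this count too is only a description. Npff was an exception, being as high in double-positive as in tdTomato-only cells, so it did not peak in the tdTomato-only population. Only Npff and Sprr2b were at least 2-fold above EGFP only in the double-positive population, where 5.1% of 11774 genes were, and 4.11% of genes were so in both populations. With 1 array for each comparison there is no replicate error and no test, and genes were counted by size. As background for the gene lists below, 1.19% of genes were at least 2-fold lower in tdTomato-only than in EGFP-only cells, 0.34% in double-positive than in EGFP-only cells and 0.274% in tdTomato-only than in double-positive cells. The shares above a log2 ratio of 0 in these comparisons were 48.2%, 48.9% and 45.7%. In sorted bulk samples a larger share of expressing cells and more RNA per cell cannot be told apart.

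**Figure D1:**
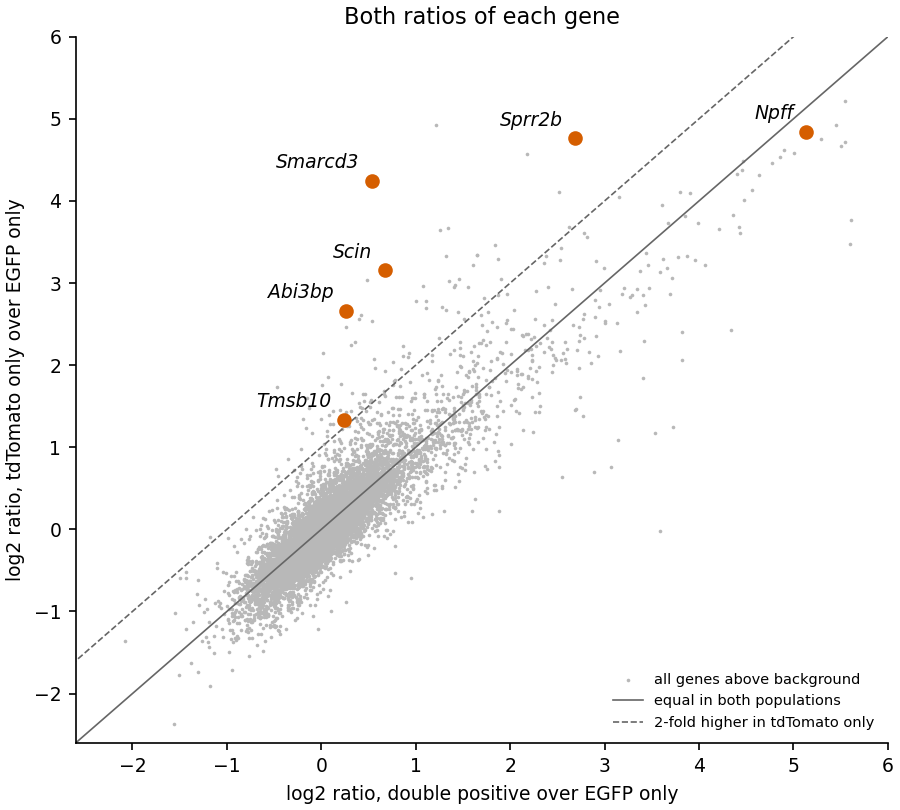
Log2 ratio over EGFP only of each gene above background in all 4 channels, in the double-positive (x axis) and the tdTomato-only population (y axis). The 6 genes are in orange, and Npff alone among them lies below the solid line of equality, while the other 5 lie above the dashed line of a 2-fold higher tdTomato-only level.

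The promoters of the 4 genes below are shown because each was at least 2-fold higher in tdTomato-only than in double-positive cells and the RefSeq promoter table (GRCm38.p6) holds them. Abi3bp and Npff have no entry there. Each window runs from 250 bases before to 50 bases after an annotated start, 5′ to 3′ on the gene's strand. Smarcd3 lies at chr5:24601953-24602252 on the minus strand, Scin at chr12:40134179-40134478 on the minus strand and Sprr2b at chr3:92316455-92316754 on the plus strand. Tmsb10 has 3 annotated starts, and the one farthest downstream is shown, at chr6:72958183-72958482 on the minus strand. Capitals mark matches on either strand to the TATA box motif TATAAA, to the CCAAT box, to the GC box motif GGGCGG, to the AP-1 motif TGANTCA or to the E-box motif CAGCTG.
Smarcd3: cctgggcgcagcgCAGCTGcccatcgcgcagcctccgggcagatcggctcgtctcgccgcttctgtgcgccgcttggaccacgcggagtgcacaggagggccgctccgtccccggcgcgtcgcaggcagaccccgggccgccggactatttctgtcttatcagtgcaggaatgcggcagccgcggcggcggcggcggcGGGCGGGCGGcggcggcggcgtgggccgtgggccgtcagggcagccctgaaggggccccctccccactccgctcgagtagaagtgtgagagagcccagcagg
Scin: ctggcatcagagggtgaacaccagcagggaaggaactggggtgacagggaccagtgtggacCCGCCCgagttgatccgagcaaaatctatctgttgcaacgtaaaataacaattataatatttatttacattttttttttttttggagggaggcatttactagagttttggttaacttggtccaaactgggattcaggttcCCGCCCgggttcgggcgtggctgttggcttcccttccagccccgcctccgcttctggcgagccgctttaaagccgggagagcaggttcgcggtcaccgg
Sprr2b: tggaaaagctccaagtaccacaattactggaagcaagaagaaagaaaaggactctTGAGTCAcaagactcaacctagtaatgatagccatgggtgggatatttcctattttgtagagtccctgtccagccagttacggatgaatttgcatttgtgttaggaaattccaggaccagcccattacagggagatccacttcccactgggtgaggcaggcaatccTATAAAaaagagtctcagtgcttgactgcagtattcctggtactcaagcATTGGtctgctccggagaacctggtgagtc
Tmsb10: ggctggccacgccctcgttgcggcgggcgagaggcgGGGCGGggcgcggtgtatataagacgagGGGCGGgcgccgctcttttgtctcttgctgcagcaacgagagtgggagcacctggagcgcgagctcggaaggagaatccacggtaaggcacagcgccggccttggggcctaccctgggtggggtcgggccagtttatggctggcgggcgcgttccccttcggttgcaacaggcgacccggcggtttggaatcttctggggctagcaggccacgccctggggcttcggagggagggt

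No motif was found in all 4 windows. GGGCGG occurred 2 times each in the windows of Smarcd3, where both matches overlap, Scin and Tmsb10, and not in that of Sprr2b. It is found in 35.7% of 32851 promoter windows in the table, and both other Tmsb10 windows hold it too. The Sprr2b window alone has TATAAA, starting 29 bases before the start site, and the AP-1 motif, 195 bases before it. These occur in 13.6% and 7.81% of all windows. It also has CCAAT (37.4% of windows) on the opposite strand, just after the start site. The E-box motif occurred once, 237 bases before the Smarcd3 start, and is in 16.3% of windows. G and C made up 74.7% of the Smarcd3 window, 68.7% of the Tmsb10 window, 52% of the Scin window and 46% of the Sprr2b window, against a median of 52.7%. These matches describe the letters in each window and are no evidence of binding.

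Intensities were read as the median of each spot, with Cy5 for EGFP only on both arrays and Cy3 for the other population. A channel's background limit was the mean of its blank spots plus 2 SD, from 74.1 to 85.4 scanner units, and between 67.0% and 77.1% of 23474 probes lay above it. All 6 genes were above the limit in all 4 channels and none was saturated. Since EGFP only was hybridized to both arrays, its repeat readings could be compared, and over 15640 probes their log2 difference had an SD of 0.083. Whether both arrays received the same extract is not given in the labels, and with 1 sorted sample this SD holds no spread between animals. Cy5 and Cy3 intensities of a spot are not on a common scale until normalized, so raw values are best compared within a dye. No dye swap was made, so in a ratio over EGFP only a dye effect of the probe cannot be told apart from a population difference, whereas the comparison between tdTomato-only and double-positive cells sets Cy3 against Cy3. Among 12 stem cell markers, 7 of the 11 measured were at least 2-fold lower in tdTomato-only than in EGFP-only cells and none was as much higher, with Lgr5 itself at a log2 ratio of -0.89. Of 14 measured goblet markers 13 were at least 2-fold higher in tdTomato-only than in EGFP-only cells, of 8 Paneth markers 7, of 11 enterocyte markers 9 and of 9 lymphocyte markers 6. For enteroendocrine markers this held for 2 of 12, for tuft markers 1 of 7, for myeloid and mast cell markers 1 of 7 and for fibroblast, muscle and endothelial markers 0 of 5. Double-positive cells gave similar counts over EGFP only, at 12 of 15 goblet, 8 of 8 Paneth, 8 of 11 enterocyte and 9 of 9 lymphocyte markers. There 1 of 12 enteroendocrine, 1 of 7 tuft, 3 of 11 myeloid and mast cell and 0 of 6 fibroblast, muscle and endothelial markers were as high. Of 12 stem cell markers 3 were at least 2-fold lower in double-positive than in EGFP-only cells. The part of these cell types in the ratios of the 6 genes over EGFP only was not tested. In tdTomato-only cells 9 measured genes had a saturated spot, so their ratios are lower bounds, and ranks are given on the values as measured.

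**Figure D2:**
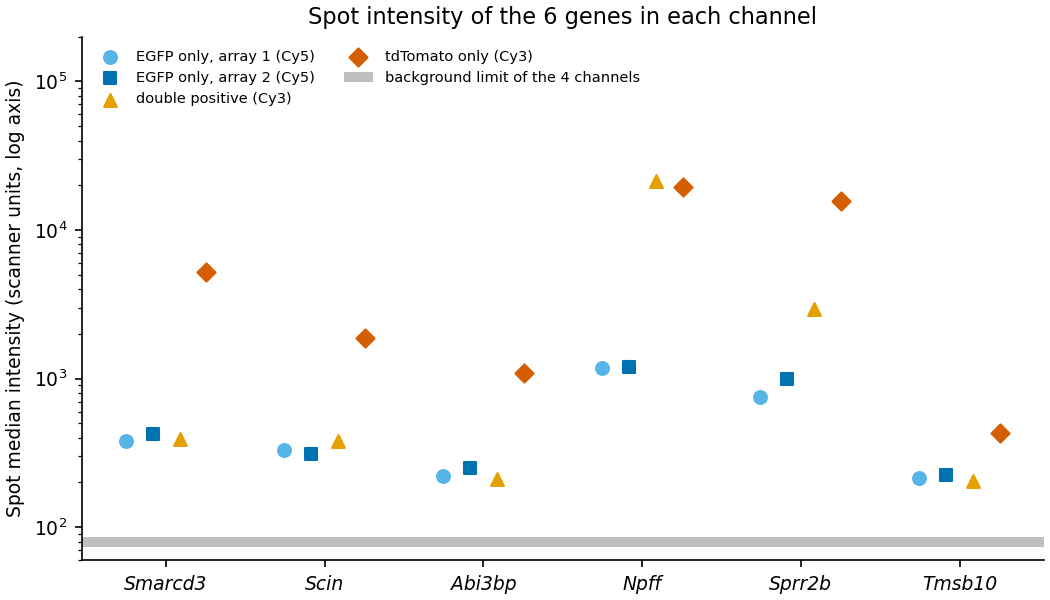
Median spot intensity in scanner units (log axis) of the 6 genes in the 4 channels, with EGFP only measured on both arrays in Cy5 and each other population once in Cy3; the grey band spans the background limits of the channels. In Cy3 the tdTomato-only value of 5 genes lies above the double-positive value, from 2.10 times for Tmsb10 to 13.1 times for Smarcd3, and for Npff the double-positive value (21507) lies just above the tdTomato-only one (19638).

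Smarcd3 showed the widest gap of the group between the descendants with and without Lgr5-EGFP. Its spot read 379 and 427 in EGFP-only cells on the first and second array, 395 in double-positive cells and 5191 in tdTomato-only cells. The tdTomato-only spot was thus bright, and the other 3 were each about 5 to 6 times the mean of their own channel's blank spots. After normalization Smarcd3 was 19.0-fold higher in tdTomato-only than in EGFP-only cells (log2 4.24) and 1.45-fold higher in double-positive cells (log2 0.53). Between the tdTomato-only and double-positive populations it differed 13.1-fold (log2 3.71), the highest measured value of 11311 genes and just ahead of S100a6 (3.70). Against 2 genes saturated in tdTomato-only cells alone, Zg16 and Tff3, that place is not settled. Over 10 other ways of processing it ranked first or next to first. Its order was tdTomato only above the other populations, which lay within 2-fold of each other.

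No other measured SWI/SNF subunit moved with Smarcd3. Of 28 listed subunits 22 were measured, and the 21 others had log2 differences between tdTomato-only and double-positive cells from -0.53 to 0.08, with a median of -0.05. Their median against EGFP only was -0.22, and none of them was 2-fold higher or lower in either population. Smarcd1, which encodes an alternative subunit for the same position in the complex, had a log2 ratio of -0.25 in tdTomato-only cells and -0.17 in double-positive cells. Smarcc1, a core scaffold subunit, stood at 0.26 and 0.78, and the ATPase gene Smarca4 at 0.11 and 0.58. The median of all genes was -0.01 over EGFP only in each population and -0.02 between them.

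Scin, the actin-severing member, was likewise bright in tdTomato-only cells alone. Its spot read 328 and 313 in EGFP-only cells, 379.9 in double-positive cells and 1889 in tdTomato-only cells. Within Cy3 the tdTomato-only reading was 4.97 times the double-positive one. Scin was 8.91-fold higher in tdTomato-only (log2 3.15) and 1.60-fold higher in double-positive cells (log2 0.67) than in EGFP-only cells. The tdTomato-only level exceeded the double-positive level 5.58-fold (log2 2.48), rank 4 of 11311 genes as measured, with the saturated Zg16 and Tff3 below it.

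Scin was not the only gelsolin-type gene in which tdTomato-only cells stood apart. Gsn, which encodes gelsolin, was also at least 2-fold higher in tdTomato-only than in double-positive cells, at a log2 difference of 1.67, with 3.03 over EGFP only in tdTomato-only and 1.36 in double-positive cells. Vil1, which encodes the villin of the brush border, was 1.10 above EGFP only in tdTomato-only and 0.86 in double-positive cells, a difference of 0.24. Capg, Flii, Svil and Avil (advillin, a tuft cell marker) stayed within 2-fold in each comparison, with differences between the populations of 0.24, -0.01, -0.19 and 0.68. Vill was at or under background in every channel. Without Scin, the 6 measured members of this superfamily had a median difference of 0.24.

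Tmsb10 had the smallest tdTomato-only ratio of the group and the lowest reading of the group in every channel. It read 215 and 226 in EGFP-only cells, 203 in double-positive cells and 428 in tdTomato-only cells. In Cy3 the tdTomato-only reading was 2.10 times the double-positive one, while the EGFP-only readings differed little. Tmsb10 was 2.52-fold higher in tdTomato-only than in EGFP-only cells (log2 1.34), but 0.94 with median centring in place of loess, which ended the 2-fold call. It was 1.18-fold higher in double-positive cells (log2 0.24), a value that median centring turned to -0.10, so the order of EGFP-only and double-positive cells is not settled. Against double-positive cells it was 2.14-fold higher in tdTomato-only cells (log2 1.10), and 1.03 to 1.31 over all settings.

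Other actin monomer binders did not share that pattern. Tmsb4x, which encodes the abundant thymosin beta 4, was at a log2 ratio of -0.18 in tdTomato-only and -0.50 in double-positive cells. Pfn1, which encodes profilin, stood at 0.38 and 0.07, and the twinfilin gene Twf2 at 0.15 and 0.45. Of 14 listed genes 8 were measured, and the 7 without Tmsb10 had differences between the populations from -0.30 to 0.32, with a median of -0.04. Probes for Tmsb15a, Pfn3 and Pfn4 were at or under background in all channels.

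**Figure D3:**
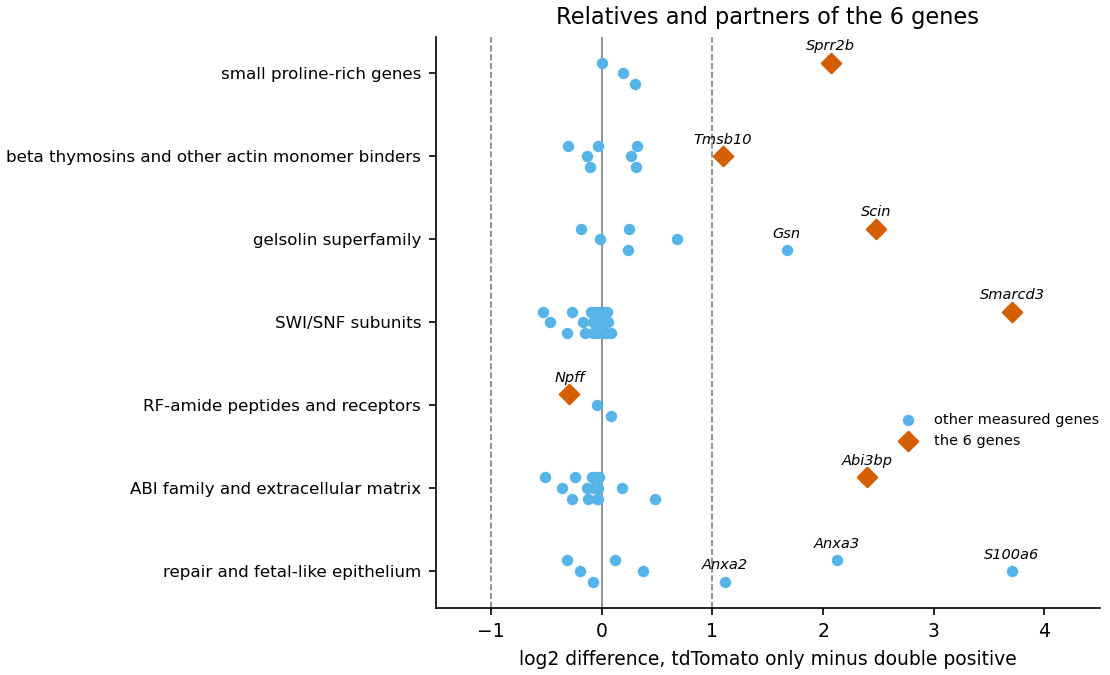
Log2 difference between tdTomato-only and double-positive cells for every measured gene of 7 lists of relatives and partners; orange diamonds are the 6 genes and dashed lines mark 2-fold. Smarcd3, Sprr2b, Abi3bp and Tmsb10 stand alone past 2-fold in their lists, Scin has Gsn at 1.67, and Npff lies at -0.29.

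Sprr2b was the one gene of the group in which double-positive cells lay between the others and at least 2-fold from each. Its spot read 750.0 and 989 in EGFP-only cells, 2927 in double-positive cells and 15689 in tdTomato-only cells. Within Cy3 the tdTomato-only reading was 5.36 times the double-positive one. After normalization it was 6.46-fold above EGFP only in double-positive (log2 2.69) and 27.1-fold in tdTomato-only cells (log2 4.76), a difference of 4.20-fold (log2 2.07). Its EGFP-only readings were the least repeatable of the group. After normalization they differed by 0.36 on the log2 scale, 4.30 times the SD of such differences, and of 11445 probes of named genes above background in all channels only 43 had a larger rise on the second array. Taking the Cy3 levels alone, a comparison added after the data were seen, gave a log2 difference of 2.43 in place of 2.07. The deposited ratios gave 1.84.

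Among the other small proline-rich genes no measured member followed Sprr2b. Of 15 listed genes 11 had a probe and 4 were above background in all channels. Sprr2a1, Sprr2a2, Sprr2a3 and Sprr2g had no probe and could not be seen, and Sprr2a3 flanks Sprr2b on the chromosome. Sprr1a had log2 ratios of 0.11 in tdTomato-only and -0.19 in double-positive cells. Sprr2h stood at 0.12 and -0.07, and Sprr2d, the gene on the other side of Sprr2b, at -0.10 in both. The Cy3 spots of Sprr2d were just above the limits of 82.2 and 85.4, at 84.0 in double-positive and 86.1 in tdTomato-only cells. Sprr2e, Sprr2f, Sprr2i, Sprr3 and Sprr4 were at or under background in every channel. Members of this family are close in sequence, and the probe's own sequence was not used here, so the reading for Sprr2b may include transcripts of its nearest relatives.

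Abi3bp, the matrix protein gene, resembled Scin at a lower level. Its spot read 220.3 and 249 in EGFP-only cells, 210.4 in double-positive cells and 1096.5 in tdTomato-only cells. As with Smarcd3, the tdTomato-only spot alone was bright. Abi3bp was 6.32-fold higher in tdTomato-only than in EGFP-only cells (log2 2.66). In double-positive cells it was 1.20-fold higher (log2 0.26), which median centring turned to -0.088, so these populations have no settled order. The tdTomato-only level was 5.27-fold above the double-positive level (log2 2.40), rank 6 of 11311 genes as measured, with the saturated Tff3 below it.

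Genes of the extracellular matrix, and those of the fibroblasts that make much of it, gave no such difference where measured, though several lay near background. Of 24 listed ABI family and matrix genes 16 were measured, and the 15 without Abi3bp ran from -0.51 to 0.48 between tdTomato-only and double-positive cells, with a median of -0.07. Abi3, whose product gave Abi3bp its name as a binding partner, stood at 0.85 over EGFP only in tdTomato-only and 1.12 in double-positive cells. Thbs1, which encodes thrombospondin, was at 1.64 and 1.67. The fibrillar collagen genes Col1a1, Col1a2 and Col3a1 had differences between the populations of -0.04, -0.24 and -0.12. Their Cy3 spots were low in double-positive and tdTomato-only cells, where the background limits were 82.2 and 85.4. They read 85.2 and 86.0 for Col1a1, 103 and 99.2 for Col1a2, and 105 and 99.7 for Col3a1. Spots so close to background can show little difference. Of 12 fibroblast, muscle and endothelial markers, 5 were measured in all channels, with a median difference of -0.12. Their summed spot medians over 12 probes were 1168 in double-positive and 1153 in tdTomato-only cells (Cy3). In EGFP-only cells (Cy5) they were 1046 and 1030. Blank spots averaged 77.9 and 78.6 in Cy3 but 68.5 and 68.7 in Cy5, so these sums are not comparable between dyes. Acta2, Cdh5, Pdgfra and Pecam1 were at or under background in tdTomato-only cells.

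Npff, the neuropeptide precursor, was the brightest of the group and the exception to its naming. Its spot read 1187 and 1195 in EGFP-only cells, 21507 in double-positive cells and 19638 in tdTomato-only cells. Within Cy3 the readings of both populations were close to each other. Npff was 35.1-fold higher in double-positive (log2 5.13, rank 8 of 11774 genes) and 28.7-fold in tdTomato-only cells (log2 4.84, rank 5 of 11381). All 8 genes saturated in double-positive and all 9 saturated in tdTomato-only cells ranked below it on their measured values, so these ranks are not settled. The double-positive level was 1.22-fold above the tdTomato-only level, a log2 difference of -0.29 that lay between -0.32 and -0.06 over all settings and never reached 2-fold. The receptor gene Npffr1 stood at -0.15 in double-positive and -0.06 in tdTomato-only cells, and Npffr2 was at or under background in every channel. Npvf, which encodes a related RF-amide precursor, stood at 0.69 and 0.65. Tarbp2, which flanks Npff on the chromosome, was at -0.34 and -0.13.

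**Figure D4:**
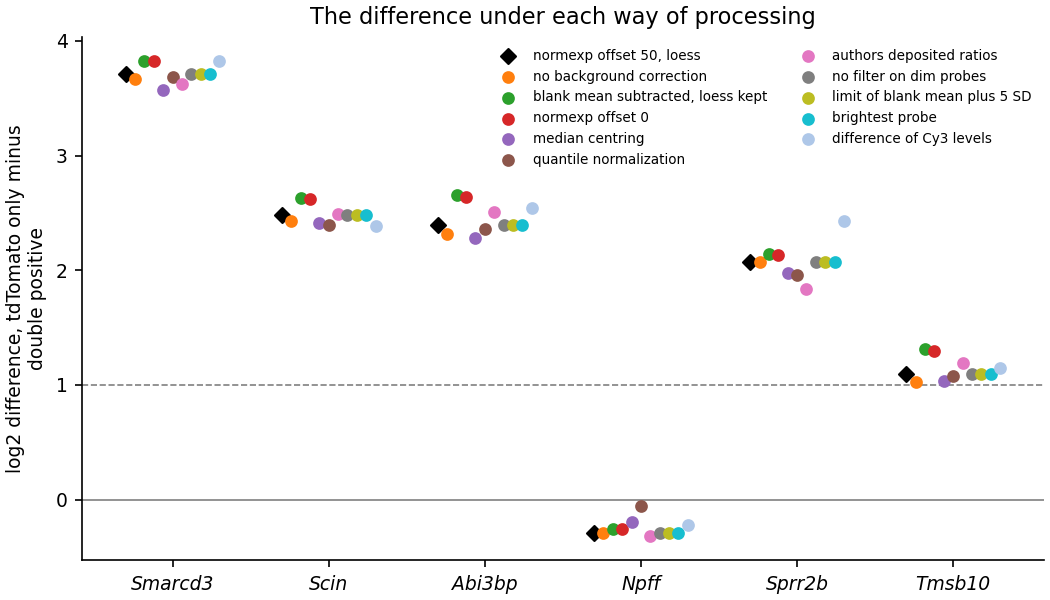
Log2 difference between tdTomato-only and double-positive cells for the 6 genes under 11 ways of processing, 3 of which cannot alter a ratio from 1 bright probe; the black diamond is the reported value and the dashed line marks 2-fold. Every setting put Smarcd3, Scin, Abi3bp, Sprr2b and Tmsb10 above the line, with Tmsb10 closest to it at 1.03, and every setting put Npff slightly below 0.

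Seen together, the tdTomato-only ratios of the group spanned ranks 5 to 426 of 11381 genes as measured, with no threshold that separates them from genes not picked. Sprr2b (4.76) followed Npff directly, with S100a6 (4.92) above them and Iglon5 (4.76) just below. Smarcd3 (4.24) lay between Radx (4.31) and Mptx1 (4.17), Scin (3.15) between Defcr3 (3.17) and Hpd (3.15), and Abi3bp (2.66) between Cgref1 (2.67) and Dusp9 (2.66). Mptx1 and Defcr3 were saturated, so their values are lower bounds. Tmsb10 (1.34) lay between Syne2 and Slc25a45, both also at 1.34. In the double-positive population the ranks were 8 for Npff and 100 for Sprr2b, but 1046 for Scin, 1382 for Smarcd3, 2706 for Abi3bp and 2877 for Tmsb10, of 11774. A tdTomato-only level 2-fold or more above both other populations was found for 85 of 11311 genes (0.751%), and 57 of them (0.504% of genes) also had double-positive levels within 2-fold of EGFP only. Smarcd3, Scin, Abi3bp and Tmsb10 are among these 57, Sprr2b is among the 85 only, and Npff is in neither set.

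The genes nearest to each of the 6 were found by the straight-line distance between pairs of log2 ratios over EGFP only, that is over 2 ratios from 3 populations. The ratios share the EGFP-only population. Nearest to Smarcd3 were Tpsg1 at a distance of 0.94, S100a6 at 0.96 and Bcas1 at 0.98, so no gene lay close to it. Tpsg1 and Bcas1 are on the goblet list. Scin had Gsta4 at 0.22, Pla2g10 at 0.45 and Oasl1 at 0.50. Abi3bp had Dusp9 at 0.02, Stat4 at 0.17 and Chst4 at 0.17. Npff had Iglon5 at 0.18, C130071C03Rik at 0.29 and Nupr1, which is on the Paneth list, at 0.32. Sprr2b had Rep15, on the goblet list, at 0.68 and Ern2 at 0.85. Zg16, also on that list, measured nearer at 0.55, but its tdTomato-only spot was saturated and its distance is not settled. Tmsb10, in a denser region of the plot of both ratios, had Vamp5 at 0.06, Arg2 at 0.09 and H1f2 at 0.09.

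Marker genes of several cell types moved between tdTomato-only and double-positive cells, and their values stand here beside those of the 5 genes that peaked in tdTomato-only cells. All 13 goblet markers with a difference were higher in tdTomato-only cells, 6 of them at least 2-fold, with a median of 0.78. Retnlb is not among them, because its EGFP-only spot on the second array (75.3) was just under the limit of 75.7. Its Cy3 spots ran the other way, at 375 in double-positive and 218 in tdTomato-only cells. The highest measured was Zg16 at 2.40, a lower bound since its tdTomato-only spot was saturated, as was that of Tff3 (1.42). In Cy5 the summed spot medians of 15 goblet markers were 54425 and 47783 in EGFP-only cells. In Cy3 the sums were 158908 in double-positive and 317785 in tdTomato-only cells. They include 1 saturated spot in double-positive and 3 in tdTomato-only cells, and none was at background in those populations. Lymphocyte markers went the other way, with all 9 measured lower in tdTomato-only cells, 6 at least 2-fold, a median of -1.13 and sums of 13506 in double-positive and 6309 in tdTomato-only cells. Of 7 measured myeloid and mast cell markers 2 were higher, with a median of -0.11 and sums of 2437 and 2157. All 5 Paneth markers with a difference were lower, with a median of -0.33 and sums of 350453 and 334871 that include 4 and 3 saturated spots. Enterocyte markers had a median of 0.32 over 11 genes and enteroendocrine markers one of 0.61 over 12. Tuft markers stood at 0.22 over 7 genes and stem cell markers at -0.75 over 11. Over EGFP only the enteroendocrine median was below 0 in both populations, at -0.24 in tdTomato-only and -0.89 in double-positive cells. In double-positive cells 6 of the 12 enteroendocrine markers were at least 2-fold lower than in EGFP-only cells, and in tdTomato-only cells 1. The part of these cell types in the ratios of the 6 genes was not tested.

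A list of genes that mark repairing or fetal-like gut epithelium, in which small proline-rich genes are often also counted, held further genes with a tdTomato-only peak. Of 18 listed genes 8 had a difference, and 3 were at least 2-fold higher in tdTomato-only than in double-positive cells, with a list median of 0.24. These were S100a6 (3.70) and the annexin genes Anxa3 (2.13) and Anxa2 (1.11). The interleukin gene Il33 was above background in tdTomato-only and double-positive cells but not in EGFP-only cells. It was at least 2.06-fold higher than EGFP only in tdTomato-only and at least 1.13-fold in double-positive cells. Anxa5 (0.37) and Msln (0.12) were higher by less than 2-fold, and Clu (-0.31), Ccn1 (-0.20) and Spp1 (-0.07) were not higher. Over EGFP only, Anxa5 stood at 1.19 in tdTomato-only and 0.82 in double-positive cells. S100a6 was known to be high from earlier results when the list was drawn up, so its place there is no independent evidence.

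The readings of the 6 genes were not shared by the spots around them. The probes next to each spot on the array, 5 for Scin and 8 for each other gene, had median log2 ratios from -0.07 to 0.24 in tdTomato-only and from -0.06 to 0.27 in double-positive cells, and the highest single neighbour was at 1.67, beside Sprr2b. Nor did protein-coding genes that flank them on the chromosome show such ratios where they were measured. Chpf2, next to Smarcd3, had -0.06 in tdTomato-only cells, Tfg, next to Abi3bp, 0.60 and Kcmf1, next to Tmsb10, 0.48. No measured flanking gene was available for Scin. The EGFP-only readings of Smarcd3, Abi3bp, Npff and Tmsb10 rose by 0.05 to 0.14 between arrays and that of Scin fell by 0.09, while the 94 probes that were at least 2-fold higher in tdTomato-only than in double-positive cells had a median EGFP-only change of -0.03.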

How the data were processed

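Both arrays came as scanner output, in which the authors deposited a median intensity for every spot in Cy5 (EGFP only) and in Cy3, per the file headers, and a table of normalized log2 ratios, per the labels' descriptions. How the deposited ratios were made is not stated; they run Cy3 population over EGFP only. Total RNA was amplified and dye-coupled, per the labels' protocols. Intensities were corrected with normexp (offset 50, no local background) and normalized by loess within each array, with control spots at weight 0 (limma 3.58.1, R 4.3.3). Probes not above the blank mean plus 2 SD, and the 2 and 3 probes marked by the scanner, were left out. Probes of a gene were averaged. Of 23474 probe spots, counted as probes although 1 probe lies on 2 of them, 16632 had 1 gene symbol, none had several and 6842 had none, with 3947 symbols updated through RefSeq (GRCm38.p6), and 59 ambiguous and 3 unmatched symbols kept. The tdTomato-only over double-positive value is the difference of both arrays' log2 ratios.

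With 1 array per comparison no test was made, and a gene was called where its log2 ratio reached 1 or -1. The number of arrays limits the precision. The normexp offset shrinks folds, most in dimmer spots, and Tmsb10 had the lowest readings of the 6 genes. The 6 genes, the 7 family lists and the 9 marker lists were chosen with earlier results of these data known. Beyond the 6 genes, those named were the 3 nearest to each, its neighbours in rank, list members past 2-fold or with the largest ratios, up to 2 markers per list, and flanking genes; other list members are named as background to the 6 and were chosen with their values known. A list gene above background in 1 population alone has a bound, from levels after loess and Aquantile. Normalization and calls were first tested on simulated data. Alternatives were the background correction, the normalization, the deposited ratios, the background limit and the brightest probe.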

Additional observations from a re-analysis of the deposited data

How the results depend on the processing

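For the 6 genes, 111 of 114 values under settings that could change them had the same direction and side of 2-fold as reported. Another 54 values, from 3 settings on dim or multiple probes, could not differ for genes with 1 bright probe. The exceptions came from median centring in place of loess: Tmsb10 in tdTomato-only over EGFP-only cells fell to 0.94, and in double-positive over EGFP-only cells Tmsb10 went to -0.10 and Abi3bp to -0.088. Median centring lowered the median of all genes to -0.21 in both ratios over EGFP only, so changes under it are relative to that shift. Counts of genes at least 2-fold apart moved more. They were 835 (83.8% higher) in tdTomato-only over EGFP-only cells, 641 (93.8% higher) in double-positive over EGFP-only cells and 123 (74.8% higher) in tdTomato-only over double-positive cells. In that order they became 1818, 1575 and 369 with the blank mean subtracted (67.4%, 74.5% and 55.8% higher), 1566, 1267 and 275 with a normexp offset of 0 (72.3%, 82.4% and 60.4%), and 2459, 1951 and 431 in the authors' deposited ratios (64.9%, 77.7% and 50.1%). Median centring gave 1257 and 1104 for the first and second (32.4% and 33.0%), and quantile normalization gave 832 and 623 with 69.7% and 82.8% higher. The cause of these moves was not tested. No paired analysis was possible because each population has 1 sample, and for the same reason no sample could be left out.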

Other observations

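Around the 6 genes, the upper end of the tdTomato-only over double-positive comparison also held genes of other functions, named here after their values were seen. Gsta4, which encodes a glutathione transferase, had a log2 difference of 2.56, and Dusp9, a phosphatase gene of the MAP kinase pathway, one of 2.37. Stat4, which encodes a cytokine-responsive transcription factor, stood at 2.19 and the sulfotransferase gene Chst4 at 2.16. All 4 had double-positive log2 ratios over EGFP only between 0.28 and 0.48. Each is among the genes nearest to Scin or Abi3bp by both ratios, so this likeness follows from the choice. Other genes at the same upper end had higher double-positive ratios, such as S100a6 (1.22), Tpsg1 (1.25), Bcas1 (1.34) and Zg16 (2.18). Tpsg1, Bcas1 and Zg16 are on the goblet list.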
